A study of Arabidopsis thaliana with 48 samples.

Results

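The 10 genes described here are Arabidopsis thaliana genes of the salicylic acid branch of plant defence, taken by gene identifier from a table of 27206 genes: ICS1 (AT1G74710), EDS1 (AT3G48090), PAD4 (AT3G52430), SAG101 (AT5G14930), NPR1 (AT1G64280), WRKY70 (AT3G56400), PR1 (AT2G14610), PR2 (AT3G57260), PR5 (AT1G75040) and PAD3 (AT3G26830). The rule of membership uses no measured value, although the genes were chosen with earlier results of these data known. All 10 passed the filter on low counts, which kept 19566 genes. ICS1, NPR1 and PR5 lie on chromosome 1, PR1 on chromosome 2, EDS1, PAD4, WRKY70, PR2 and PAD3 on chromosome 3 and SAG101 on chromosome 5. Salicylic acid is a hormone that plants make on infection, mainly from isochorismate in the plastid. EDS1 with its partners PAD4 and SAG101 relays signals of intracellular immune receptors and promotes synthesis of the hormone, NPR1 binds it and acts with TGA transcription factors on target genes, and the PR proteins are secreted and accumulate at the end of the chain. PAD3 stands apart from the hormone itself, since it makes the antimicrobial compound camalexin.

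RNA was sequenced from shoot apices enriched for the meristem, the dome of stem cells at the tip of the shoot with its youngest leaves, in plants grown in short days and collected once a week from the age of 3 to that of 6 weeks. No pathogen or hormone treatment is given in the labels, so the values are levels in plants that were not challenged on purpose. The 4 genotypes were the wild type (WT, accession Col), the insertion line chr4-2, the svp flc ft tsf soc1 line, called quintuple, and qem2, a mutant compared with quintuple, whose mutations it shares. CHR4, also called PKR1, is a chromatin remodeller, and the 5 genes of the quintuple line regulate flowering time. With 4 ages per genotype this made 16 groups of 3 libraries, each from 15 pooled apices. The column for replicate 3 of qem2 at 5 weeks held the same count as that of quintuple for all genes and was dropped, so that 47 libraries remained and qem2 at 5 weeks had n = 2. Which label is right is not known, and the column was kept as quintuple.

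CHR4 itself (AT5G44800) lay between 65.3 and 111 CPM in the 12 libraries of chr4-2 and between 159 and 241 in WT, lower at every week (log2 from -1.17 to -1.10), whereas in qem2 it lay between 239 and 328 CPM against 166 to 274 in quintuple, and the labels do not name the gene mutated in qem2. Assigned reads ran from 2.91 to 19.75 M per library, and the shallowest was qem2 at 6 weeks replicate 1. Levels are CPM (counts scaled to library size with TMM factors), and spreads are SDs over n = 3 unless stated. All tests are from a single edgeR quasi-likelihood fit of the 47 libraries, with Benjamini-Hochberg adjustment over the 19566 genes, and a gene was called at adjusted p under 0.05. All 6 markers of the meristem were detected in every group, with a summed level from 157 to 404 CPM per library. The 7 markers of leaf mesophyll were also present and summed to between 7925 and 21890 CPM, so that genes of green leaf tissue were read together with those of the meristem. A lower level in such a sample cannot tell fewer cells of a type from less RNA per cell.

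The genes differed widely in level, here as CPM per kilobase of exon averaged over the 16 groups. WRKY70, a transcription factor that acts on salicylic acid responses, was the highest at 47.5. PR5 followed at 22.2, NPR1 at 19.8, EDS1 at 13.3, ICS1 at 7.31 and SAG101 at 7.08. PAD4 lay at 5.39 and PR2 at 5.03. PAD3 and PR1 were the lowest, at 0.794 and 0.652. PR1, the most used marker of the active pathway, thus had 370 reads over all 47 libraries and at most 33 in any of them, so its values carry a large counting error. The genes differed as much in how well replicates repeated. The pooled SD within groups, on the log2 CPM scale, was 0.17 for NPR1 and 0.17 for ICS1, under the 0.19 of the median tested gene. It was 0.64 for PR1, 1.00 for PR2 and 1.12 for PAD3, and 99.3% and 99.6% of all tested genes had a smaller SD than the latter pair. PAD4, WRKY70 and PR5 lay between, at 0.57, 0.42 and 0.36, as did EDS1 at 0.26 and SAG101 at 0.21.

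**Figure D1:**
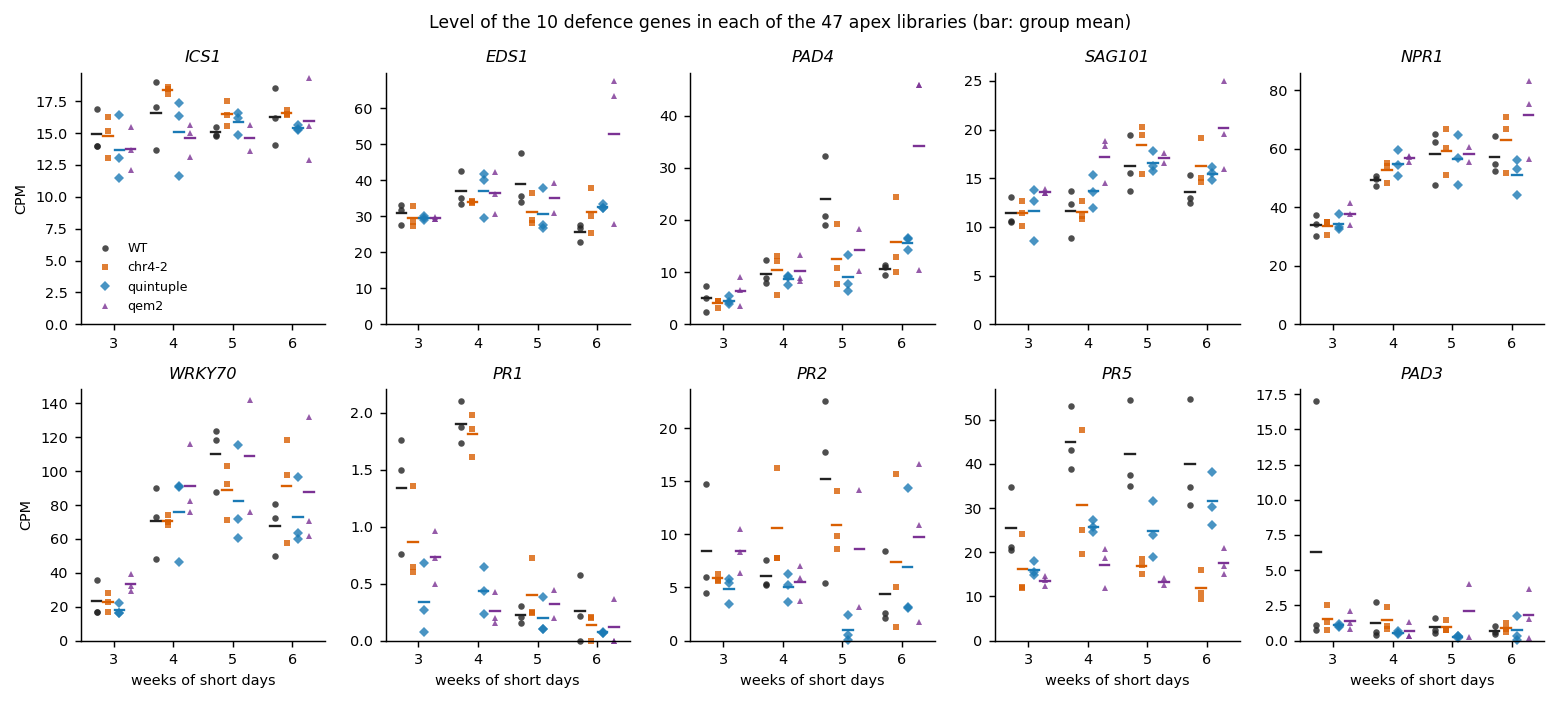
Level of each gene in CPM (y axis, linear, from 0) against weeks after sowing in short days (x axis), with 1 point per library, coloured by genotype, and a bar at each group mean. WRKY70 and NPR1 were lowest at 3 weeks in all 4 genotypes, ICS1 stayed between 11.5 and 19.3 CPM, and 2 of the 3 qem2 libraries at 6 weeks stood far above the third in EDS1 and PAD4.

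The promoters of 3 genes are shown because the results turn on them: NPR1 and WRKY70, which rose with age, and PR5, which was lower in chr4-2 than in WT and, averaged over the weeks, in qem2 than in quintuple. Each line holds the 250 bases before the annotated start of the gene, 5′ to 3′ on the strand of the gene, from RefSeq (assembly TAIR10.1). They lie at chr1:23855659-23855908 on the minus strand for NPR1, chr3:20910624-20910873 on the minus strand for WRKY70 and chr1:28177420-28177669 on the plus strand for PR5. Capitals mark the core of the W box, TTGAC, which WRKY factors bind, and the core of the TGA site, TGACG, on either strand (GTCAA and CGTCA on the printed strand when the motif is on the other).
NPR1: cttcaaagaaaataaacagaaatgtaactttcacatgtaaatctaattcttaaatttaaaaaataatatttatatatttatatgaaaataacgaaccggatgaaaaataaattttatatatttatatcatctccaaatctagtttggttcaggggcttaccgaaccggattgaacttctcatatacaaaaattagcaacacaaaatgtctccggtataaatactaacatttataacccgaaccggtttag
WRKY70: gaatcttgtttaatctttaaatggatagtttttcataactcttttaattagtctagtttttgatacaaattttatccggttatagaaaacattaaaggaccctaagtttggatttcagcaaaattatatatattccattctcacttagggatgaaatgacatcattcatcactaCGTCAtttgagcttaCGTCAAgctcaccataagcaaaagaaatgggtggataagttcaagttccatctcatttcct
PR5: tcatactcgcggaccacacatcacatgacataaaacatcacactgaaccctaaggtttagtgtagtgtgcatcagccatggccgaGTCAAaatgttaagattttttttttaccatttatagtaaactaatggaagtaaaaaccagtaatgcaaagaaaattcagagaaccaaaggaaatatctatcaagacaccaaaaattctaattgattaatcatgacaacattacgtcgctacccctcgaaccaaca
In these windows 4 of the 9 genes searched held TTGAC (EDS1, SAG101, WRKY70 and PR5), against 44.9% of 27443 promoters of the same length. TGACG was found in 1 of the 9, WRKY70, with 2 matches, against 18.6% of all promoters. 1 of these matches overlapped the W box core as TTGACG, a run that 7.19% of promoters held. The NPR1 window held neither run of letters.

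The time course asked how the genes changed while apices aged from 3 to 6 weeks in short days. From 3 to 6 weeks WRKY70 and NPR1 rose and PR1 fell in all 4 genotypes. PAD4 and SAG101 were called higher in chr4-2, quintuple and qem2 and not in WT, but no change was shown to differ between genotypes. Of the 40 tests of 10 genes in 4 genotypes, 21 were called between 6 and 3 weeks, which is 52.5% against 40.2% over all genes. Of these 16 were higher and 5 lower, at a background of 20.1% higher and 20.2% lower. By genotype 4, 5, 6 and 6 of the 10 were called in WT, chr4-2, quintuple and qem2, against 38%, 45.9%, 41.5% and 35.5% of all genes. Markers of other tissues changed over the same time. Of 7 vascular markers 6 fell in qem2 and 5 in each other genotype, and their sum in WT was 187 to 204 CPM at 3 weeks and 68.1 to 78.3 at 6 weeks. Of the 7 mesophyll markers 4, 5, 6 and 4 fell. Their sum in WT changed little, from 12650 to 16130 CPM at 3 weeks and 12260 to 15320 at 6 weeks. In chr4-2 it was lower without overlap, at 13390 to 21890 and 8405 to 11890 CPM. The summed meristem markers of WT lay at 157 to 180 CPM at 3 weeks and 255 to 290 at 6 weeks. In qem2 they overlapped, at 207 to 239 and 212 to 255 CPM. The part of these markers in the changes below was not tested.

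ICS1 encodes isochorismate synthase, the entry enzyme of hormone synthesis, and was the steadiest of the genes. Its 47 libraries ran from 11.5 to 19.3 CPM, and its log2 changes from 3 to 6 weeks were 0.12, 0.17, 0.18 and 0.17 in WT, chr4-2, quintuple and qem2, none of them called. EDS1, the lipase-like hub of the signalling node, was not called in WT, chr4-2 or quintuple (log2 -0.25, adjusted p = 0.333 in WT). In qem2 EDS1 rose (log2 0.81 ± 0.20, adjusted p = 0.00176), where it was at 29.7, 29.4 and 29.3 CPM in replicates 1, 2 and 3 at 3 weeks and at 67.6, 27.9 and 63.4 at 6 weeks. Replicates 1 and 3 at 6 weeks were thus far above all 3 libraries at 3 weeks, while replicate 2 was below them, and the groups overlapped. The call ended when the compared groups were fitted alone (adjusted p = 0.111).

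PAD4 pairs with EDS1 and was low and variable. In WT its libraries, in the order of replicates 1, 2 and 3, held 7.43, 2.36 and 5.10 CPM at 3 weeks, 7.90, 8.89 and 12.3 at 4 weeks, 19.0, 20.8 and 32.3 at 5 weeks and 9.50, 11.3 and 11.0 at 6 weeks. The WT level was thus highest at 5 weeks. In chr4-2 the values were 4.51, 3.18 and 4.53 at 3 weeks and 24.4, 9.94 and 12.9 at 6 weeks. In quintuple they were 3.89, 5.44 and 4.21 and 14.2, 16.3 and 16.5, and in qem2 6.54, 3.43 and 9.01 and 45.9, 10.5 and 45.9. The groups of 3 and 6 weeks did not overlap in any genotype. The change was called in chr4-2 (log2 1.98 ± 0.47, adjusted p = 0.000896), quintuple (log2 1.80 ± 0.46, adjusted p = 0.00205) and qem2 (log2 2.40 ± 0.46, adjusted p = 0.000115), in each case whichever library was left out. In WT it was not called (log2 1.08 ± 0.47, adjusted p = 0.0692), although it was without WT 3 weeks replicate 1, with the replicate block (adjusted p = 0.0402), with DESeq2 (0.0374) and with the compared groups alone (0.0229). SAG101, the other partner of EDS1, rose by little in chr4-2 (log2 0.50, adjusted p = 0.0137), quintuple (log2 0.40, adjusted p = 0.0499) and qem2 (log2 0.52, adjusted p = 0.0152). These SAG101 calls ended without chr4-2 6 weeks replicate 1 (adjusted p = 0.104), when any 1 quintuple library of these weeks other than 3 weeks replicate 1 was left out (up to 0.315) and without qem2 6 weeks replicate 1 (0.108). That in quintuple also ended with RLE size factors, no count filter, DESeq2 or the compared groups alone (adjusted p from 0.0594 to 0.0878).

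NPR1, the hormone receptor and coactivator, rose in every genotype with little spread. In WT its replicates 1, 2 and 3 held 37.3, 30.0 and 34.4 CPM at 3 weeks, 47.4, 50.9 and 49.6 at 4 weeks, 65.2, 47.8 and 62.2 at 5 weeks and 54.7, 64.4 and 52.5 at 6 weeks. In chr4-2 they held 30.7, 35.1 and 34.9 at 3 weeks and 70.8, 51.9 and 66.9 at 6 weeks. Libraries of 3 weeks were thus the lowest in both. Quintuple held 37.7, 33.3 and 32.4 CPM at 3 weeks and 44.1, 53.1 and 56.1 at 6 weeks. In qem2 the values were 41.3, 34.0 and 37.6 at 3 weeks and 83.2, 56.5 and 75.4 at 6 weeks. Every library of 4, 5 or 6 weeks was above every library of 3 weeks of any genotype. The log2 change from 3 to 6 weeks was 0.75 ± 0.13 in WT, 0.91 ± 0.13 in chr4-2, 0.57 ± 0.13 in quintuple and 0.91 ± 0.14 in qem2, with adjusted p of 4.2e-05, 1.22e-06, 0.000837 and 2.35e-06.

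WRKY70 had the largest rise of the genes called in all 4 genotypes. In WT its replicates 1, 2 and 3 held 36.0, 16.9 and 17.1 CPM at 3 weeks, 48.1, 72.7 and 90.3 at 4 weeks, 124, 119 and 87.6 at 5 weeks and 72.2, 49.9 and 80.8 at 6 weeks. The level in WT was thus highest at 5 weeks, as it was for PAD4. In chr4-2 the values were 23.0, 16.7 and 28.0 at 3 weeks and 118, 57.7 and 98.0 at 6 weeks. Quintuple held 22.2, 16.1 and 16.5 CPM at 3 weeks and 59.8, 96.6 and 63.3 at 6 weeks, and qem2 held 32.1, 39.0 and 29.2 and 70.6, 61.6 and 132. Every library of 4, 5 or 6 weeks was above those of 3 weeks of its genotype. From 3 to 6 weeks the gene rose 2.94-fold in WT (adjusted p = 0.000798), 4.06-fold in chr4-2 (2.53e-05), 3.98-fold in quintuple (3.79e-05) and 2.66-fold in qem2 (0.00193). The calls of NPR1 and WRKY70 held whichever library was left out.

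PR1 went the other way. Its reads in replicates 1, 2 and 3 of WT were 19, 8 and 22 at 3 weeks, 28, 17 and 33 at 4 weeks, 2, 3 and 3 at 5 weeks and 4, 0 and 11 at 6 weeks. In chr4-2 they were 9, 11 and 12, then 19, 19 and 23, then 3, 4 and 10 and then 3, 2 and 0. In both genotypes the drop lay between 4 and 5 weeks, where the fall was called in WT (log2 -3.08 ± 0.66, adjusted p = 0.00347) and in chr4-2 (log2 -2.15 ± 0.60, adjusted p = 0.0175). Quintuple had 13, 1 and 3 reads at 3 weeks and 1, 1 and 1 at 6 weeks, and qem2 had 9, 14 and 6 and 0, 0 and 5. From 3 to 6 weeks PR1 fell in WT (log2 -2.03, adjusted p = 0.00977), chr4-2 (log2 -2.55, adjusted p = 0.00719), quintuple (log2 -2.23, adjusted p = 0.049) and qem2 (log2 -2.17, adjusted p = 0.0331). In pooled reads scaled to depth, the ratio of 6 to 3 weeks was 0.25 in WT (95% exact counting interval 0.13 to 0.454), 0.172 in chr4-2 (0.0522 to 0.444), 0.186 in quintuple (0.0348 to 0.642) and 0.213 in qem2 (0.0644 to 0.557), intervals that cover counting error only. The calls from 3 to 6 weeks ended without WT 6 weeks replicate 1 (adjusted p = 0.0616), without chr4-2 6 weeks replicate 3 (0.0573), when any 1 quintuple library other than 3 weeks replicate 2 was left out (up to 0.494) and without qem2 3 weeks or 6 weeks replicate 1 or 2 (up to 0.219). That between 4 and 5 weeks held in WT whichever library was left out and ended in chr4-2 without 5 weeks replicate 1 or 2 (up to 0.0864). The quintuple call from 3 to 6 weeks also ended with no count filter (adjusted p = 0.0562) and with DESeq2 (0.0561).

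PR5 encodes a thaumatin-like protein. In WT replicates 1, 2 and 3 held 34.8, 20.4 and 21.1 CPM at 3 weeks, 43.1, 53.1 and 39.0 at 4 weeks, 35.0, 54.5 and 37.5 at 5 weeks and 34.9, 30.6 and 54.6 at 6 weeks. It rose from 3 to 4 weeks in WT (log2 0.82, adjusted p = 0.0219), chr4-2 (log2 0.98, adjusted p = 0.0113) and quintuple (log2 0.68, adjusted p = 0.0493), and it was not called in qem2 (log2 0.35, adjusted p = 0.342). These calls ended without WT 3 weeks replicate 2 or 3 or 4 weeks replicate 2 (up to adjusted p = 0.0999), without chr4-2 3 weeks replicate 2 or 3 or 4 weeks replicate 1 (up to 0.123) and when any 1 of the 6 quintuple libraries was left out (up to 0.127). That in chr4-2 also ended with the compared groups alone (adjusted p = 0.147), and that in quintuple with RLE size factors, no count filter or all 48 columns (0.0562 to 0.0618). From 3 to 6 weeks it was called in quintuple (log2 0.97 ± 0.29, adjusted p = 0.00649), whichever library was left out, and not in WT (log2 0.67 ± 0.28, adjusted p = 0.0566), chr4-2 (log2 -0.36 ± 0.30, adjusted p = 0.346) or qem2. PR2, a secreted glucanase, was called in no genotype between 3 and 6 weeks, and its WT libraries held 14.8, 4.44 and 5.99 CPM at 3 weeks, 7.57, 5.19 and 5.37 at 4 weeks and 2.64, 2.13 and 8.42 at 6 weeks. PAD3, the last enzyme of camalexin synthesis, fell in WT (log2 -3.08 ± 0.95, adjusted p = 0.0102), where its 3 libraries held 183, 12 and 11 reads at 3 weeks and 19, 3 and 11 at 6 weeks. The value rested on replicate 1 of 3 weeks, without which the log2 change was -0.34 (adjusted p = 0.819).

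**Figure D2:**
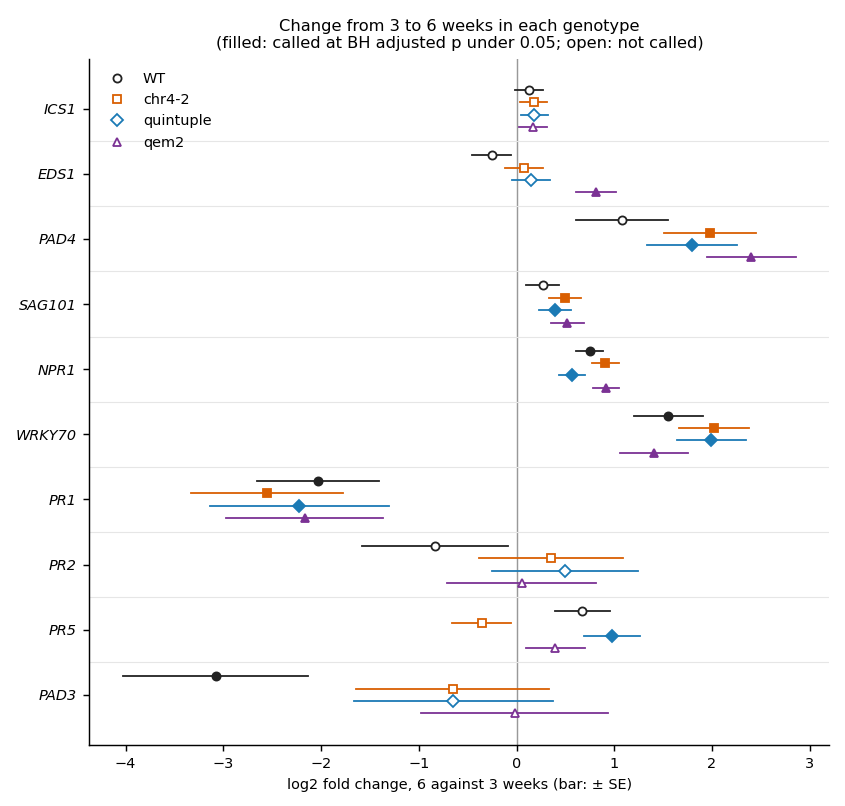
Log2 fold change from 3 to 6 weeks (x axis) of each gene (y axis) in the 4 genotypes, with bars of 1 SE, filled where called and open where not. WRKY70 and NPR1 lie right of 0 and PR1 left of 0 in all 4 genotypes, while ICS1 lies within 0.18 of 0.

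Among the steps between adjacent weeks, NPR1 and WRKY70 rose from 3 to 4 weeks in every genotype and were called at no later step. Of 120 tests 16 were called, 13 higher and 3 lower, a share of 13.3% against 15.3% over all genes (7.49% higher and 7.82% lower). The background was highest for 4 against 3 weeks, at 34.9%, 29.9%, 45.4% and 43.9% in WT, chr4-2, quintuple and qem2, and lower for 5 against 4 weeks, at 4.75%, 10.6%, 11.3% and 0.23%. The change from 3 to 4 weeks, which shares its libraries of 3 weeks with the comparison of 6 against 3 weeks, was called for NPR1 in WT, chr4-2, quintuple and qem2 (log2 0.54, 0.64, 0.67 and 0.59). It was called for WRKY70 in the same 4 genotypes (log2 1.60, 1.65, 2.05 and 1.45). PAD4 rose at that step in chr4-2 (log2 1.36, adjusted p = 0.032) and SAG101 rose in chr4-2 from 4 to 5 weeks (log2 0.67, adjusted p = 0.00782). Both calls ended without single libraries, the first without chr4-2 3 weeks replicate 2 or 3 or 4 weeks replicate 1 or 3 (up to adjusted p = 0.12) and the second without chr4-2 5 weeks replicate 3 (0.0509) and, with the compared groups alone, at 0.0547. In WT the mean of PAD4 went from 9.71 CPM at 4 weeks to 24.0 at 5 weeks, a step that was not called (adjusted p = 0.0764). PAD3 fell in WT from 3 to 4 weeks (log2 -2.20, adjusted p = 0.0483), a call that turned to a positive value, 0.54 (adjusted p = 0.69), without WT 3 weeks replicate 1. No gene of the 10 was called from 5 to 6 weeks in any genotype, at a background of 0.353%, 0.291%, 1.92% and 0.0511%, and 7 of these 40 tests had an unadjusted p under 0.05. The test of whether the change from 3 to 6 weeks differed between genotypes called 0 of 30, against 0.428% over all genes, and 2 had an unadjusted p under 0.05. The share of all genes under that unadjusted p is not given here, so the counts at it have no background.

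The comparison of chr4-2 with WT asked what differed in the insertion line, in which CHR4 reads were fewer than in WT and still present. PR5 was lower in chr4-2 than in WT at 5 and 6 weeks, by 2.50-fold and 3.35-fold, and no other gene of the 10 was called at any week. The 2 calls among 40 tests, both lower, made 5% against 2.06% over all genes and weeks and 0.8% in that direction. From 3 to 6 weeks the background was 0.818%, 1.09%, 2.32% and 4.01%. In chr4-2 the replicates 1, 2 and 3 of PR5 held 24.2, 12.2 and 11.9 CPM at 3 weeks, 47.7, 19.6 and 25.1 at 4 weeks, 18.5, 15.2 and 17.1 at 5 weeks and 16.0, 10.7 and 9.36 at 6 weeks. Against the WT values above, the groups overlapped at 3 and 4 weeks and did not overlap at 5 and 6 weeks, where every chr4-2 library was below every WT library. The fold changes were log2 -0.71 ± 0.29, adjusted p = 0.454 at 3 weeks and log2 -0.55 ± 0.28, adjusted p = 0.56 at 4 weeks. They were log2 -1.32 ± 0.29, adjusted p = 0.00524 at 5 weeks and log2 -1.75 ± 0.29, adjusted p = 0.000157 at 6 weeks.

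The call at 6 weeks held whichever library was left out, and that at 5 weeks ended without WT 5 weeks replicate 2 (adjusted p = 0.0602). Averaged over the 4 weeks, a contrast added after the data were seen, PR5 was lower in chr4-2 by log2 -1.08 ± 0.14, adjusted p = 9.25e-07, again whichever library was left out. The authors' deposited table for this comparison also listed PR5 at 5 weeks (log2 -1.40, adjusted p = 0.00495) and 6 weeks (log2 -1.74, adjusted p = 6.11e-06). The summed mesophyll markers at 6 weeks ran from 8405 to 11890 CPM in chr4-2 and from 12260 to 15320 in WT, none of the 7 was called there, and their part in the difference of PR5 was not tested. None of the genes that act before the outputs was called. The log2 differences at the 4 weeks lay between -0.02 and 0.16 for ICS1 and between -0.01 and 0.15 for NPR1. They lay between -0.33 and 0.27 for EDS1, between -0.04 and 0.25 for SAG101 and between -0.31 and 0.42 for WRKY70. For PAD4 they were -0.31 at 3 weeks, 0.07 at 4 weeks, -0.95 ± 0.42 at 5 weeks and 0.59 ± 0.43 at 6 weeks.

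The comparison of qem2 with quintuple put the same kind of question to the mutant in the flowering-time background. NPR1 was higher in qem2 at 6 weeks, and PR5 was lower at every week without a call in any of them. The call of NPR1 was 1 of 40 tests, 2.5%, against 1.64% over all genes and weeks, 1.09% in that direction, and 1.05%, 1.23%, 1.41% and 2.86% in order of week. NPR1 held 44.1, 53.1 and 56.1 CPM in quintuple and 83.2, 56.5 and 75.4 in qem2 (log2 0.47 ± 0.13, adjusted p = 0.0439). Replicates 1 and 3 of qem2 stood well above quintuple, replicate 2 was close to the highest quintuple library, and the call ended without quintuple 6 weeks replicate 1 or 2 or qem2 6 weeks replicate 1 or 3 (up to adjusted p = 0.254), with no count filter (0.0506) and with the compared groups alone (0.278).

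PR5 in quintuple held 15.6, 14.8 and 17.9 CPM in replicates 1, 2 and 3 at 3 weeks, 24.5, 27.3 and 25.6 at 4 weeks, 19.0, 31.7 and 23.8 at 5 weeks and 30.3, 38.2 and 26.2 at 6 weeks. In qem2 it held 13.7, 12.3 and 14.5 at 3 weeks, 18.6, 12.0 and 20.8 at 4 weeks, 14.1 and 12.5 at 5 weeks (n = 2) and 17.0, 15.1 and 21.0 at 6 weeks. Every qem2 library was below every quintuple library of the same week. The log2 differences were -0.25, -0.58, -0.90 and -0.83 in order of week, with adjusted p of 0.852, 0.545, 0.27 and 0.135. Averaged over the 4 weeks the difference was called (log2 -0.64 ± 0.15, adjusted p = 0.00361) and held whichever library was left out. The authors' deposited table, from the same series, listed PR5 as lower in qem2 at 5 weeks (log2 -0.82, adjusted p = 0.00774) and 6 weeks (log2 -0.82, adjusted p = 0.00716). Whether its values at 5 weeks used the column dropped here is not known. Whether qem2 differed from quintuple otherwise than chr4-2 from WT was tested at each week, and 0 of 40 tests were called, against 0.0792% over all genes, with 4 at an unadjusted p under 0.05. The share of all genes under that unadjusted p is not given here. For PR5 at 6 weeks the difference of the effects was log2 0.92 ± 0.41 (adjusted p = 0.567), so the smaller value in qem2 was not shown to differ from that in chr4-2.

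At 6 weeks the qem2 libraries also split within the group at the EDS1 node. EDS1 held 67.6, 27.9 and 63.4 CPM in qem2 replicates 1, 2 and 3 against 33.4, 32.3 and 32.4 in quintuple, and PAD4 held 45.9, 10.5 and 45.9 against 14.2, 16.3 and 16.5. Replicates 1 and 3 of qem2 were above all quintuple libraries in both genes, and replicate 2 was below them. Neither gene was called (log2 0.66, adjusted p = 0.0613 for EDS1 and log2 1.08, adjusted p = 0.185 for PAD4), but both were without qem2 6 weeks replicate 2 (adjusted p = 0.000118 and 0.0126). Replicate 1 was the shallowest library of all and replicate 3 was not, and the part of depth in the split was not tested. PR2 at 5 weeks was another value with a wide spread, at 14.2 and 3.16 CPM in qem2 against 0.509, 2.41 and 0.0964 in quintuple, and it was not called (log2 2.94, adjusted p = 0.13).

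The comparison of quintuple with WT showed the flowering-time background itself, and it shares its WT libraries with the comparison of chr4-2 and its quintuple libraries with that of qem2. PR1 was lower in quintuple at 4 weeks, and PR2 and PAD4 were lower at 5 weeks. These 3 calls among 40 tests, all lower, made 7.5% against 6.48% over all genes and weeks, 3.2% in that direction, a share near the background. By week the background was 0.404%, 12.4%, 6.86% and 6.29%. PR1 had 28, 17 and 33 reads in the WT libraries of 4 weeks and 3, 10 and 8 in quintuple (log2 -2.07 ± 0.57, adjusted p = 0.015). All quintuple libraries were below all WT libraries, and the call ended without quintuple 4 weeks replicate 3 (adjusted p = 0.104) and with the compared groups alone (0.0503). PR2 at 5 weeks held 17.8, 22.5 and 5.44 CPM in WT and 0.509, 2.41 and 0.0964 in quintuple (log2 -3.76 ± 0.85, adjusted p = 0.0058), a call that held whichever library was left out and ended with the compared groups alone (adjusted p = 0.15). PAD4 at 5 weeks held 19.0, 20.8 and 32.3 CPM in WT and 6.36, 7.80 and 13.2 in quintuple (log2 -1.43 ± 0.43, adjusted p = 0.0372), again without overlap, but the call ended when any 1 of the 3 WT libraries or quintuple replicate 1 or 2 was left out (up to adjusted p = 0.16) or the compared groups were fitted alone (0.1005). The authors' deposited table listed PAD4 (log2 -1.15, adjusted p = 0.00317) and PR2 (log2 -4.30, adjusted p = 3.54e-05) as lower in quintuple at 5 weeks. For quintuple against WT it also gave a single adjusted p per gene, not split by week. This was 2.75e-05 for PR5, 0.00184 for PR1, 0.000645 for PR2, 0.00438 for PAD4 and 0.0653 for PAD3. PAD3 was thus over 0.05 there.

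PR5 lay below WT in quintuple without overlap at 3, 4 and 5 weeks, and the groups overlapped at 6 weeks. Its log2 differences in order of week were -0.66, -0.80, -0.76 and -0.36, none of them called (adjusted p = 0.583, 0.054, 0.0945 and 0.551). That at 4 weeks was called with RLE size factors (adjusted p = 0.048), with DESeq2 (0.0289) and with the compared groups alone (0.0379). Averaged over the 4 weeks, 4 genes were lower in quintuple than in WT and none was higher. PR5 was lower by log2 -0.65 ± 0.14, adjusted p = 0.000922 and PR1 by log2 -1.58 ± 0.39, adjusted p = 0.00289, and both calls held whichever library was left out. PAD3 (log2 -1.44, adjusted p = 0.0439) and PR2 (log2 -1.07, adjusted p = 0.0436) were called as well, but these ended when any 1 of 15 and 14 of the 24 libraries was left out (up to adjusted p = 0.249 and 0.143). Over the 3 genotype comparisons, 6 of 30 such tests were called, all lower, which is 20% against 15.2% over all genes and 7.2% in that direction. The background was 11.9%, 11.1% and 22.6% for chr4-2, qem2 and quintuple. The quintuple libraries of 4 weeks also carried more of the leaf-age marker SEN1, which was higher there than in WT (log2 5.99, adjusted p = 0.000415). Replicate 3 carried most of it, since the leaf-age markers summed to 14.6, 17.1 and 168 CPM in replicates 1, 2 and 3 against 0.670, 1.85 and 1.90 in WT. Without that library the log2 difference of SEN1 was 3.86 (adjusted p = 0.0226), and with the compared groups alone it was not called (adjusted p = 0.0950). The leaf-age markers also summed to 10.8, 18.5 and 127 CPM in replicates 1, 2 and 3 of qem2 at 4 weeks. Replicate 3 was thus the highest in both genotypes. The part of SEN1 in the lower values was not tested. SAG12, the defining marker of old leaves, was at 0 in 3 of the 4 WT groups. It was also at 0 in quintuple at 4 and 6 weeks, though not at 3 and 5 weeks, so it did not follow SEN1 at 4 weeks.

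**Figure D3:**
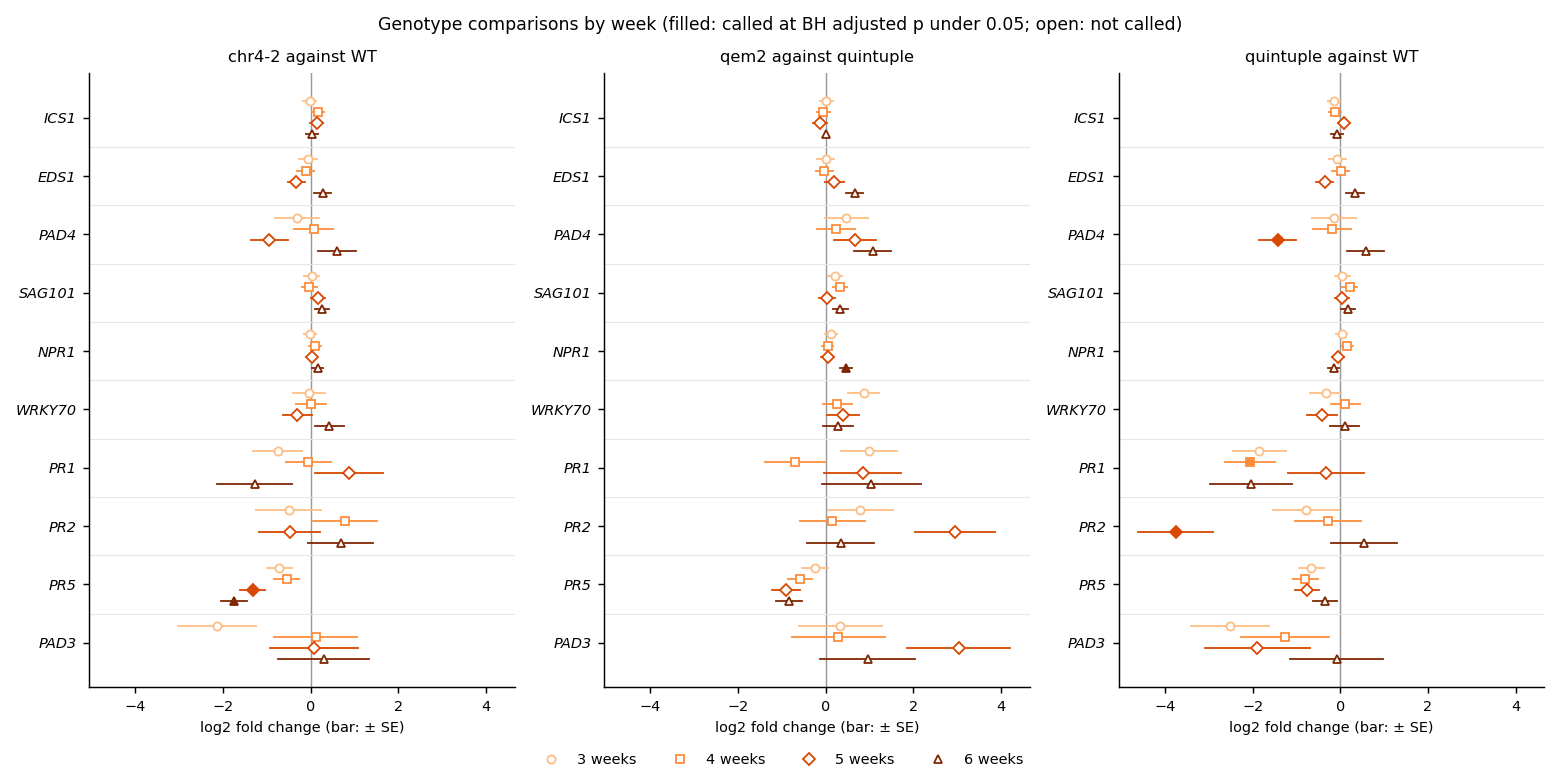
Log2 fold change (x axis) of each gene (y axis) in the 3 genotype comparisons, with 1 marker per week and bars of 1 SE, filled where called. PR5 lies left of 0 at every week in all 3 panels, and 6 markers of 120 are filled.

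Relatives of these genes were examined because reads of close copies can be shared between them and because they show whether a family moved together. All 9 genes of the list of relatives are described here, of which 8 were tested and BG1, with 17 reads in all, was not. PRB1, a basic protein of the PR1 family whose gene lies near PR1 at chr2:6225351-6226227 on the minus strand, was higher than PR1 itself, at 17.9 CPM per kilobase of exon over the groups. PRB1 fell in chr4-2 at 4 weeks (log2 -1.52 ± 0.30, adjusted p = 0.00263), 5 weeks (log2 -1.64 ± 0.32, adjusted p = 0.00141) and 6 weeks (log2 -2.26 ± 0.33, adjusted p = 1.4e-05), each whichever library was left out. At 6 weeks its replicates 1, 2 and 3 held 23.7, 31.3 and 22.1 CPM in WT and 5.87, 7.38 and 2.92 in chr4-2. PRB1 also fell in qem2 at 5 weeks (log2 -1.52, adjusted p = 0.0186) and 6 weeks (log2 -1.45, adjusted p = 0.0234), calls that ended when any 1 of 4 libraries was left out (up to adjusted p = 0.294), and averaged over the weeks it was lower in qem2 by log2 -1.17 ± 0.17, adjusted p = 4.5e-06. In quintuple it was lower than in WT at 4 weeks (log2 -1.07, adjusted p = 0.0131) and 6 weeks (log2 -1.47, adjusted p = 0.00182), the first of which ended without WT 4 weeks replicate 2 or quintuple 4 weeks replicate 3 (up to 0.0722).

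TLP-3 (AT1G75030), another thaumatin-like gene, is the neighbour of PR5: it spans chr1:28174187-28175456 and PR5 spans chr1:28177670-28179022, both on the plus strand of TAIR10.1. Like PR5 it fell in chr4-2 at 5 weeks (log2 -0.97, adjusted p = 0.0391) and 6 weeks (log2 -1.44 ± 0.28, adjusted p = 0.000928). At 6 weeks its replicates 1, 2 and 3 held 10.9, 9.01 and 12.9 CPM in WT and 4.85, 5.22 and 2.31 in chr4-2, without overlap, and that call held whichever library was left out, while that at 5 weeks ended when any 1 of 5 libraries was left out (up to adjusted p = 0.202). TLP-3 rose from 3 to 6 weeks in all 4 genotypes (log2 1.93, 0.80, 2.05 and 1.42 in WT, chr4-2, quintuple and qem2). The chr4-2 call ended when any 1 of 4 libraries was left out (up to adjusted p = 0.305).

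AT3G48080 lies beside EDS1, at chr3:17752463-17755190 against chr3:17755329-17758147, both on the minus strand. It rose in every genotype from 3 to 6 weeks (log2 2.19, 2.34, 2.03 and 1.38) whichever library was left out, whereas EDS1 was called in qem2 alone. In WT replicates 1, 2 and 3 held 3.90, 1.70 and 3.54 CPM at 3 weeks and 18.3, 11.3 and 12.1 at 6 weeks. ICS2, the second isochorismate synthase, was above its WT level in quintuple at 4 weeks (log2 1.00, adjusted p = 9.78e-05), 5 weeks (log2 0.82, adjusted p = 0.00103) and 6 weeks (log2 0.84, adjusted p = 0.000705), whichever library was left out, while ICS1 was not called in that comparison. The calls at 4 and 5 weeks ended with the compared groups alone (adjusted p = 0.0599 and 0.0514). ICS2 was also higher in chr4-2 than in WT at 4 weeks (log2 0.62, adjusted p = 0.0437) and 6 weeks (log2 0.57, adjusted p = 0.0397), and not called at 5 weeks (log2 0.53, adjusted p = 0.0764). At 4 weeks its replicates 1, 2 and 3 held 11.3, 11.7 and 11.3 CPM in chr4-2 and 7.43, 8.52 and 6.58 in WT, and the groups did not overlap at 4, 5 or 6 weeks. These weekly calls ended when any 1 of 5 and 4 libraries was left out (up to adjusted p = 0.344 and 0.232), and the mean over 4 weeks (log2 0.46, adjusted p = 8.32e-05) was called whichever library was left out. BG3, a glucanase near PR2, was lower in quintuple at the same weeks (log2 -3.08, -3.05 and -3.52), and so was WRKY54, the closest relative of WRKY70 in the list (log2 -1.23, -1.05 and -1.27). The BG3 calls at 5 and 6 weeks held whichever library was left out, whereas the others ended without at least 1, and the BG3 call at 6 weeks ended with the compared groups alone (adjusted p = 0.133). PR-1-LIKE was lower in quintuple at 5 weeks (log2 -3.43, adjusted p = 0.00106), where replicates 1, 2 and 3 held 4, 5 and 0 reads against 37, 24 and 12 in WT. With the compared groups alone it was not called (adjusted p = 0.0661). AT4G26120 rose from 3 to 6 weeks in chr4-2 (log2 1.13, adjusted p = 0.000331) and qem2 (log2 0.87, adjusted p = 0.011). The qem2 call of AT4G26120 ended without qem2 3 weeks replicate 2 or 6 weeks replicate 2 (up to 0.128).

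**Figure D4:**
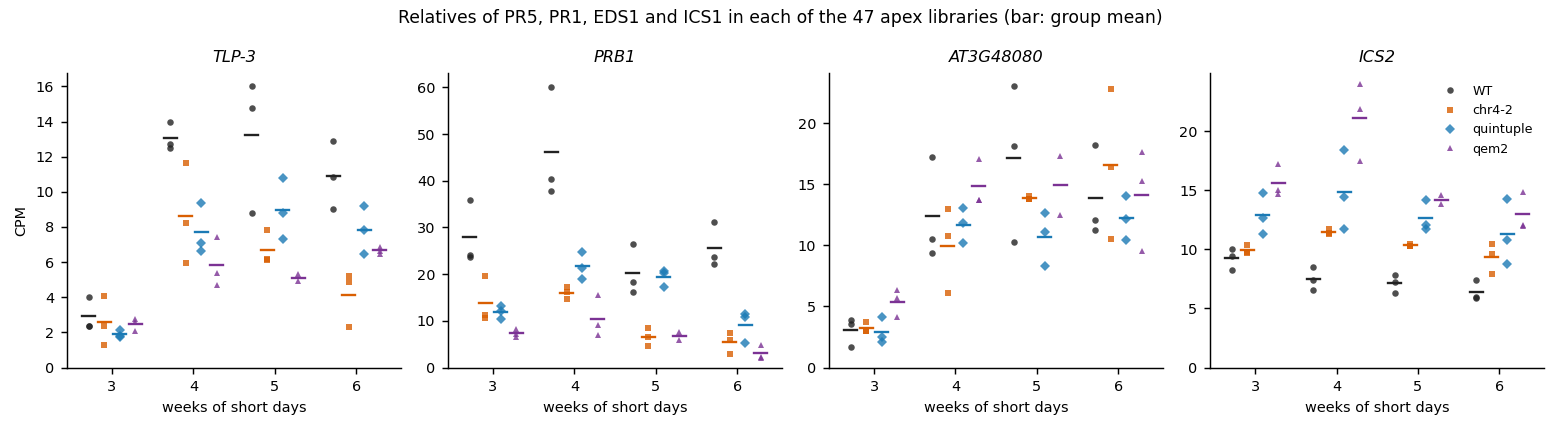
Level in CPM (y axis, linear, from 0) of TLP-3, PRB1, AT3G48080 and ICS2 in each of the 47 libraries against weeks after sowing (x axis), coloured by genotype, with bars at group means. At 6 weeks the chr4-2 points of TLP-3 and PRB1 all lie below the WT points, and AT3G48080 rises from 3 weeks in all genotypes.

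Other genes of the pathway were read as 8 lists of 72 genes, of which 68 were tested. Of 198 calls of list and related genes, 102 held whichever library was left out. Of the 10 genes of hormone synthesis, 4 fell and none rose from 3 to 6 weeks in WT, 5 fell in chr4-2, 1 fell and 1 rose in quintuple, and 2 rose in qem2. Over all genes 38%, 45.9%, 41.5% and 35.5% were called in these comparisons in either direction, and 20.2% were called lower over the 4 together. The counts of WT and chr4-2 are near the background of both directions, though all of them were falls, and the others are below it. The median log2 change of the list was -0.91 in WT and 0.04 in qem2, against -0.0035 and 0.0145 over all tested genes. PAL3, a phenylalanine ammonia-lyase, which starts the other route to the hormone, fell in WT (log2 -0.79, adjusted p = 0.000426) and quintuple (log2 -0.73, adjusted p = 0.000448), and its relative PAL4 fell in chr4-2 (log2 -1.51, adjusted p = 0.000252), whichever library was left out. Against WT, PAL3 was higher in quintuple at 4, 5 and 6 weeks (log2 0.50, 0.63 and 0.64), calls that ended when any 1 of 2 to 4 libraries was left out (up to adjusted p = 0.176). EDS5, the exporter of isochorismate from the plastid, fell in WT (log2 -1.79, adjusted p = 0.00852) and chr4-2 (log2 -1.52, adjusted p = 0.0217), which ended without WT 6 weeks replicate 1 (adjusted p = 0.0542) and without chr4-2 3 weeks replicate 1 or 6 weeks replicate 2 or 3 (up to 0.103). EPS1, which acts late in synthesis, rose in quintuple (log2 0.98, adjusted p = 0.00247), whichever library was left out.

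Among the 11 genes that act with NPR1, TGA4 and TGA1, transcription factors that NPR1 binds, had the largest falls from 3 to 6 weeks. In all 1 gene rose in WT, 2 rose and 1 fell in chr4-2, 1 rose and 2 fell in quintuple and 2 fell in qem2, shares below the 38%, 45.9%, 41.5% and 35.5% of all genes called. TGA4 fell from 3 to 6 weeks in chr4-2, quintuple and qem2 (log2 -1.38, -2.22 and -2.63) and TGA1 fell in quintuple and qem2 (log2 -1.82 and -2.76), whichever library was left out. NPR1 itself rose in these genotypes, as above. NIMIN-3, which encodes an NPR1-interacting protein, was the gene of this list called in both mutant comparisons. It was higher in chr4-2 than in WT at 6 weeks (log2 0.88, adjusted p = 0.0286) and in qem2 than in quintuple at 4 weeks (log2 1.08, adjusted p = 0.0102), 5 weeks (log2 1.11, adjusted p = 0.0214) and 6 weeks (log2 1.21, adjusted p = 0.00329). TGA1 was lower in quintuple than in WT at 6 weeks (log2 -1.68, adjusted p = 0.00271), whichever library was left out. Each weekly call of NIMIN-3 ended without at least 1 library (up to adjusted p = 0.476), and the mean over 4 weeks was called in both comparisons (log2 0.60 and 0.95) whichever library was left out.

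Of the 12 immune receptors and partners, 3 rose in WT, 4 in chr4-2, 3 in quintuple and 4 in qem2 from 3 to 6 weeks, and 2 fell in quintuple. These counts are at or below the background of 38%, 45.9%, 41.5% and 35.5% of all genes called in either direction. Over the 4 comparisons together 20.1% of all genes were called higher. ACD6, a membrane protein that promotes defence, fell in quintuple (log2 -3.45, adjusted p = 0.000114), as did the intracellular receptor SNC1 (log2 -0.60, adjusted p = 0.000713), whichever library was left out. FLS2, the receptor of bacterial flagellin, rose in every genotype (log2 1.44, 1.53, 1.40 and 1.51), whichever library was left out. ADR1 lay below WT in quintuple from 4 to 6 weeks (log2 -0.94, -1.05 and -0.75), calls that each ended without at least 1 library (up to adjusted p = 0.328). The helper receptors that work with EDS1 and PAD4 were called at 6 weeks in qem2 against quintuple: ADR1 (log2 1.07, adjusted p = 0.00706), ADR1-L1 (log2 0.53, adjusted p = 0.04) and ADR1-L2 (log2 1.01, adjusted p = 0.00543) were higher. ADR1-L2 held 85.5, 31.6 and 59.9 CPM in qem2 replicates 1, 2 and 3 and 25.6, 31.2 and 28.2 in quintuple. A like split was seen in other genes of the lists that were called in qem2 between 3 and 6 weeks. These genes were named because of that call, which needs high values in the same libraries. They are thus no separate evidence of the split. WRKY46 held 24.0, 1.57 and 25.2 CPM in these qem2 libraries, WRKY40 20.3, 0.272 and 20.0, WRKY53 10.3, 0.817 and 14.3 and SARD1, an activator of ICS1, 12.0, 2.72 and 36.7. In each of them replicate 2 was the lowest, as in EDS1 and PAD4, and the calls from 3 to 6 weeks of WRKY40, WRKY46, WRKY53 and SARD1 all ended without qem2 6 weeks replicate 3 (up to adjusted p = 0.0519, 0.0958, 0.275 and 0.703 when 1 library was omitted). Those of ADR1, ADR1-L1 and ADR1-L2 against quintuple all ended without qem2 6 weeks replicate 1, and the first pair also without others (up to 0.0902, 0.243 and 0.0768).

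Of the 6 other genes of camalexin synthesis and export, 4 fell in WT and 4 in chr4-2 from 3 to 6 weeks, 1 fell in qem2, and in quintuple 2 rose and 2 fell, against 38%, 45.9%, 35.5% and 41.5% of all genes called in WT, chr4-2, qem2 and quintuple. GGP1, which supplies sulfur in this pathway, fell in all 4 genotypes (log2 -1.36 in WT, -1.25 in quintuple and -1.90 in qem2, with adjusted p = 4.04e-06 in chr4-2), whichever library was left out. CYP71A12, which makes an intermediate, fell in WT (log2 -4.02, adjusted p = 0.00311), and this call ended without WT 3 weeks replicate 1 (adjusted p = 0.0606), the library on which the fall of PAD3 rested. Of the 4 tested genes of hormone turnover, 2 were lower in quintuple than in WT at 5 weeks, against 6.86% of all genes called, and one of them was DMR6, a salicylic acid hydroxylase (log2 -1.73, adjusted p = 0.0285), whose call ended when any 1 of 5 libraries was left out (up to adjusted p = 0.195). Jasmonate, the hormone often set against salicylic acid, was followed by 15 genes. Of these 7 rose and 3 fell in quintuple from 3 to 6 weeks and 5 rose and 2 fell in qem2, against 1 and 3 in WT and 2 and 2 in chr4-2. Over all genes 41.5%, 35.5%, 38% and 45.9% were called in these 4 comparisons. The test of whether the change differed between quintuple and WT called 0 of the 15 genes, with 8 at an unadjusted p under 0.05, and that between qem2 and quintuple called 0, with 0 at that p. The share of all genes under that unadjusted p is not given here, so the 8 cannot be set against a background. THI2.1, a thionin, rose in WT (log2 6.70, adjusted p = 0.00016) and PR4, a chitin-binding protein, fell there (log2 -5.03, adjusted p = 6.36e-07), as did the chitinase gene HCHIB, also called PR3 (log2 -5.42, adjusted p = 5.23e-08), and these calls held whichever library was left out, while that of THI2.1 ended with the compared groups alone (adjusted p = 0.0586). VSP1, a storage protein induced by jasmonate, rose in quintuple (log2 4.78, adjusted p = 0.000806) and qem2 (log2 4.39, adjusted p = 0.00202), whichever library was left out.

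Replicates of a group gave a further view of the genes, since libraries of 1 group share genotype and age. Each log2 CPM was taken less its group mean, and pairs of genes were correlated over the 47 libraries, with p from 100000 permutations within groups, two-sided. Of the 9 genes set against PR1, 2 deviated with it: WRKY70 (Pearson r = 0.553, adjusted p over 9 pairs = 0.00819, Spearman rho = 0.56, adjusted p = 0.00882) and PR5 (r = 0.52, adjusted p = 0.00603, rho = 0.566, adjusted p = 0.00369). Without the 2 libraries farthest from the median of PR1, r was 0.481 and 0.487. The other 7 had an adjusted p of r from 0.301 to 0.655, NPR1 among them (r = 0.0933). PR1 and WRKY70 thus deviated in the same direction among replicates, while their group means moved in opposite directions from 3 to 6 weeks.

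Over all 45 pairs of the 10 genes, computed after the data were seen, 40 had a positive r and 13 an adjusted p of r under 0.05, all of these positive. The share among pairs of other tested genes is not given here, so neither these counts nor that with PR1 have a background. For 8 pairs the adjusted p of both r and rho was under 0.05. EDS1 and PAD4 had the largest r (0.679, adjusted p over 45 pairs = 0.0162, rho = 0.58, adjusted p = 0.0221). Without the 2 libraries farthest from the median of EDS1, both of qem2 at 6 weeks, r was 0.538, and without the whole group of qem2 at 6 weeks it was 0.497. ICS1 deviated with none of the others (r from -0.264 to 0.113). The libraries share a scaling factor and an apex dissection for all genes, and the part of either in these correlations was not tested.

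**Figure D5:**
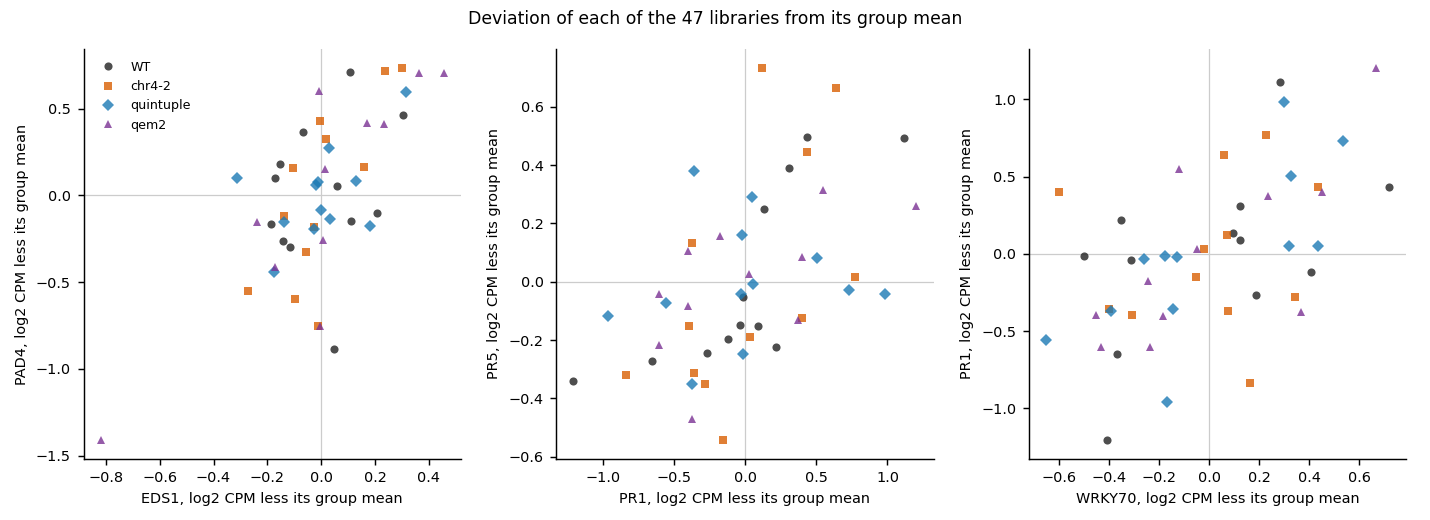
Deviation of each library from its group mean on the log2 CPM scale, for EDS1 (x axis) and PAD4 (y axis), PR1 and PR5, and WRKY70 and PR1, with 1 point per library coloured by genotype. All 3 clouds slope upward (r = 0.679, 0.52 and 0.553), and a qem2 library of 6 weeks lies alone at the lower left of the first panel.

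Genes whose pattern was most like that of PR1, EDS1 and WRKY70 were taken by the Pearson correlation of log2 CPM over the 16 group means, among genes of at least 1 CPM. For WRKY70 the 5 highest were AT3G48080, the neighbour of EDS1 (r = 0.982), SR34b (0.982), AT2G45380 (0.981), AT5G25440 (0.979) and AGL31 (0.979). For PR1 they were IPT5 (0.944), ZFP5 (0.924), AT5G54660 (0.908), AT3G27150 (0.906) and AT2G46890 (0.906). For EDS1 they were AT3G09830 (0.9), AT3G27100 (0.889), AT5G41550 (0.864), AT4G39830 (0.853) and AT1G50740 (0.837). Among the 10 genes themselves, NPR1 and WRKY70 were the most alike over the group means (r = 0.943), PAD4 followed with NPR1 (0.885) and WRKY70 (0.848), and PR1 ran against SAG101 (-0.746). The group means differ by week and by genotype, so these correlations describe shared patterns over the groups and no more. For EDS1 the mean was 52.9 CPM in qem2 at 6 weeks, the group whose replicates split. Its other group means lay between 25.7 and 39.1 CPM, so its list rests largely on that group.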

How the data were processed

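Reads per gene were measured in 48 columns of apex RNA, 1 per library, prepared with TruSeq kits from 15 pooled apices per the labels' protocols. The deposited values are whole-number counts per gene, not normalized, per the file headers. The tools named are TopHat2, SAMtools, HTSeq and DESeq2, without versions, and the genome build is TAIR10, per the submitters' processing notes. Whether strand was used in counting is not given in the sources used here, so that antisense or near-identical genes could share reads. The authors' deposited tables of differential genes give log2 fold changes, a mean signal per gene and p-values, and served only for the values credited to them. Nothing in the labels says that replicates came from separate plantings, so p-values measure the spread between these samples.

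The duplicated column of qem2 at 5 weeks replicate 3 was left out by the rule of the work. The other 47 libraries, with 2.91 to 19.75 M counts (median 14.2), in 16 groups entered 1 fit with edgeR 4.0.16 (R 4.3.3): TMM factors from 0.874 to 1.053, filterByExpr with a minimum count of 10, and the robust quasi-likelihood test, with Benjamini-Hochberg adjustment over 19566 genes and calls at adjusted p under 0.05. The common biological coefficient of variation was 14.7%. The fit was tested on simulated data in which all genes had the same biological coefficient of variation, near the common one. That coefficient was 30.6% for PR1, 63.2% for PR2 and 75.7% for PAD3, so the simulation does not cover such genes. Depth limits PR1 most, and counting intervals are exact conditional binomial intervals at 95%. Correlations between replicates used log2 CPM with a prior count of 2.

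The alternatives were DESeq2 1.42.0, RLE size factors, no count filter, a fold minimum, the compared groups alone, the replicate number as a block, all 48 columns, and leaving out each library. The contrasts averaged over 4 weeks, the 45 pairs of genes and the alternatives for list genes were added after seeing the data. The 10 genes and the lists were chosen with earlier results of these data known. Named are the 10 genes, every listed relative, up to 4 called genes of each list and comparison with the largest change, and the 5 genes most like PR1, EDS1 and WRKY70 among those of at least 1 CPM. Promoters are the 250 bases before the start of a gene in RefSeq TAIR10.1, whose table also gave the names; that of PR1 is not reported here. Gene names in the files are identifiers, and coordinates are those of TAIR10.1.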

Additional observations from a re-analysis of the deposited data

How the results depend on the processing

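Of 49 calls of the 10 genes, 28 held whichever library was left out, and 15 held under every alternative as well. The calls at 2, 1 and 3 of 40 for chr4-2, qem2 and quintuple ranged from 1 to 2, from 0 to 3 and from 2 to 3 over the fits without 1 library. Those from 3 to 6 weeks ranged from 19 to 22 about 21, those between adjacent weeks from 14 to 18 about 16, and the contrasts averaged over 4 weeks from 4 to 11 about 6. The tests of whether qem2 differed from quintuple otherwise than chr4-2 from WT stayed at 0, and those between time effects reached 1, the change of EDS1 in qem2 less that in quintuple, without qem2 6 weeks replicate 2. The count of 11 also came without that library. For qem2 against quintuple the count was 0 under a minimum of 1 for the absolute log2 fold change, 0 with no count filter and 3 with DESeq2. With that fold minimum, 12 calls were left from 3 to 6 weeks and 8 between adjacent weeks. Fitting the compared groups alone gave 15 calls from 3 to 6 weeks. The 1 value that reversed was PAD3 in WT from 3 to 4 weeks, which became 0.54 (adjusted p = 0.69) without WT 3 weeks replicate 1 and ranged from -3.59 to 0.54 over the fits without 1 library. The cause of these changes was not tested.

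With the replicate number as a block, the counts were 2, 1 and 3 for the genotype comparisons, 22 from 3 to 6 weeks, 16 between adjacent weeks, 0 and 0 for the differences of effects and 4 for the contrasts averaged over 4 weeks. The labels do not say that a number marks a shared batch, and all 3 pairs of same-numbered libraries correlated over 0.1 in 5 of 16 comparisons checked.

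At these depths PR1 had at most 33 reads in a library, so that modest changes in it were not detectable. The group of qem2 at 5 weeks had 2 libraries. Bulk apices mix meristem and leaf, and the counting of reads shared by close copies is not stated.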
